A study of Rattus norvegicus with 6 samples.

Results

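The CXC and CX3C chemokines described here are 9 genes, Cxcl1, Cxcl2, Cxcl9, Cxcl10, Cxcl11, Cxcl12, Cxcl13, Cxcl16 and Cx3cl1, out of 14497 genes measured by a probe set with exactly 1 annotated symbol. They were chosen by name, with earlier results of these data known, and each is measured by 1 probe set. RNA was measured on 6 Affymetrix whole-transcript arrays, in brain of male Sprague-Dawley rats. In the stroke groups a hook raised the middle cerebral artery transiently to cause an infarct, and the tissue came from around the infarct at 3 d or 14 d. They were 3 to 4 months old (young, 19 rats pooled for each array) or 19 to 20 months old (aged, 23 rats pooled). The naive groups had no stroke and were 3 to 5 or 18 to 20 months old, with 15 rats pooled for each array; the labels call their tissue healthy brain without naming its region, while the series title speaks of ipsilateral cortex. No sham-operated group was analysed here. Each of the 6 groups is 1 array of 1 pool, and differences between animals are hidden by the pooling. Median log2 values of the arrays ran from 7.09 to 7.15. All 11 neuron markers listed passed the filter, with mean levels of 11.29 and 11.26 on the young and aged naive arrays.

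Chemokines are small secreted proteins that direct the movement of cells through G protein-coupled receptors. CXC members have a single residue between the first pair of cysteines, and the CX3C member has 3. Cxcl1 and Cxcl2 attract neutrophils through Cxcr2. Cxcl9, Cxcl10 and Cxcl11 are induced by interferons and attract activated T cells and NK cells through Cxcr3. Cxcl12 acts through Cxcr4, and Ackr3 takes it up; in the brain it is made by endothelium and meninges, among other cells. Cxcl13 attracts B cells through Cxcr5. Cxcl16 and Cx3cl1 are made as transmembrane proteins that can be shed by proteases, and bind Cxcr6 and Cx3cr1; neurons make Cx3cl1 and microglia carry its receptor.

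In the RefSeq gene order 6 of the 9 genes lie on rat chromosome 14. Cxcl11, Cxcl10 and Cxcl9 are neighbours there with 0 protein-coding genes between them, and so are Cxcl2 and Cxcl1. Promoters of all 9 were found in the RefSeq table of build GRCr8, and the 250 bases before each annotated start were searched on both strands for 3 motifs bound by factors known to act on chemokine genes. The interferon-stimulated response element, searched as GAAA and GAAA with 2 bases of any kind between them, matched in Cxcl10 alone among the 9, and in 3.41% of 33469 promoter windows of this length. The STAT element, searched as TTCNNNGAA, matched in Cxcl11 alone, and in 7.67% of windows. The kappaB consensus matched in Cxcl1, Cxcl2, Cxcl10 and Cxcl11, and in 6.33% of windows. The windows of Cxcl10 and Cxcl11 are printed whole because both genes rose after stroke, and 50 bases of Cxcl1 and Cxcl2 are printed because they hold the same consensus and did not pass any test. Capitals mark the matches: in Cxcl10 the interferon element comes first and is followed by kappaB matches, and in Cxcl11 the STAT element comes first and is followed by a kappaB match. In Cxcl1 and Cxcl2 all capitals are kappaB matches, which overlap on both strands. A match says that the letters are there, not that a factor binds.
Cxcl10 (GRCr8, chr14:15988816-15989065, plus strand): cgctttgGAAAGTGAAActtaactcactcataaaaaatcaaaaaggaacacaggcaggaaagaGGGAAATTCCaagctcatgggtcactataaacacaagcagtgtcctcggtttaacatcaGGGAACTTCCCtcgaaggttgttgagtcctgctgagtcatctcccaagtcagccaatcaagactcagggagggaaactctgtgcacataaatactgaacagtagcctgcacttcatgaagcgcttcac
Cxcl11 (GRCr8, chr14:15973478-15973727, plus strand): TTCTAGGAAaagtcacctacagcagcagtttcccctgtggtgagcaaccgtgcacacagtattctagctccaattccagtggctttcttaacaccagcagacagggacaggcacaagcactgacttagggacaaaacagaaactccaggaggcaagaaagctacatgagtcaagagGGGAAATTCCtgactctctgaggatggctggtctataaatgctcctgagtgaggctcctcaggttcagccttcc
Cxcl1 (GRCr8, chr14:17479382-17479431, minus strand): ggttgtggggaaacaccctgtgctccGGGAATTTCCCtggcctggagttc
Cxcl2 (GRCr8, chr14:17467316-17467365, minus strand): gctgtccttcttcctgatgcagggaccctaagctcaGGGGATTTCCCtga

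Values below are log2 probe set values, which can be compared between arrays but not between genes. A change is a difference of log2 values, and an error is the standard error of a limma fit with age and time after stroke as additive terms, over all 6 arrays (2 arrays per time point, 3 per age). A gene was called at a Benjamini-Hochberg adjusted p under 0.05 over all genes tested. Young and aged arrays serve as repeats of a time effect in this fit, so an age difference of the response enters its error. Genes were tested if they reached the 40th percentile of an array (6.49 to 6.62) at least on 1 array, which left 10947. Of the 9 chemokines 7 were tested. Cxcl2 and Cxcl9 lay below that level on all 6 arrays. Cxcl10, Cxcl11 and Cxcl13 reached it on the 4 stroke arrays and on neither naive array, so they were tested because they were high after stroke, and their fold changes start from values below that level. Counts over the chemokines, and over every other list of genes, are therefore taken from a fit of all 14497 genes without a filter. Changes and adjusted p-values of single genes are those with the filter unless stated otherwise. In that fit 4 of the 9 rose at 3 d (9.97% of all genes rose), 5 of the 9 rose at 14 d (9.4% of all genes) and 0 fell at either time (4.28% and 6.63% of all genes fell). The median change of the 9 was 0.24 at 3 d and 0.95 at 14 d, against -0.065 and -0.046 over all genes. Both times are set against the same naive arrays. Members and other lists were chosen with earlier results of these data known. Their counts beside the shares of all genes are therefore descriptions, not tests. With the filter 1491 genes rose and 1243 fell at 14 d, and with array medians centred 1336 rose and 1686 fell.

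**Figure D1:**
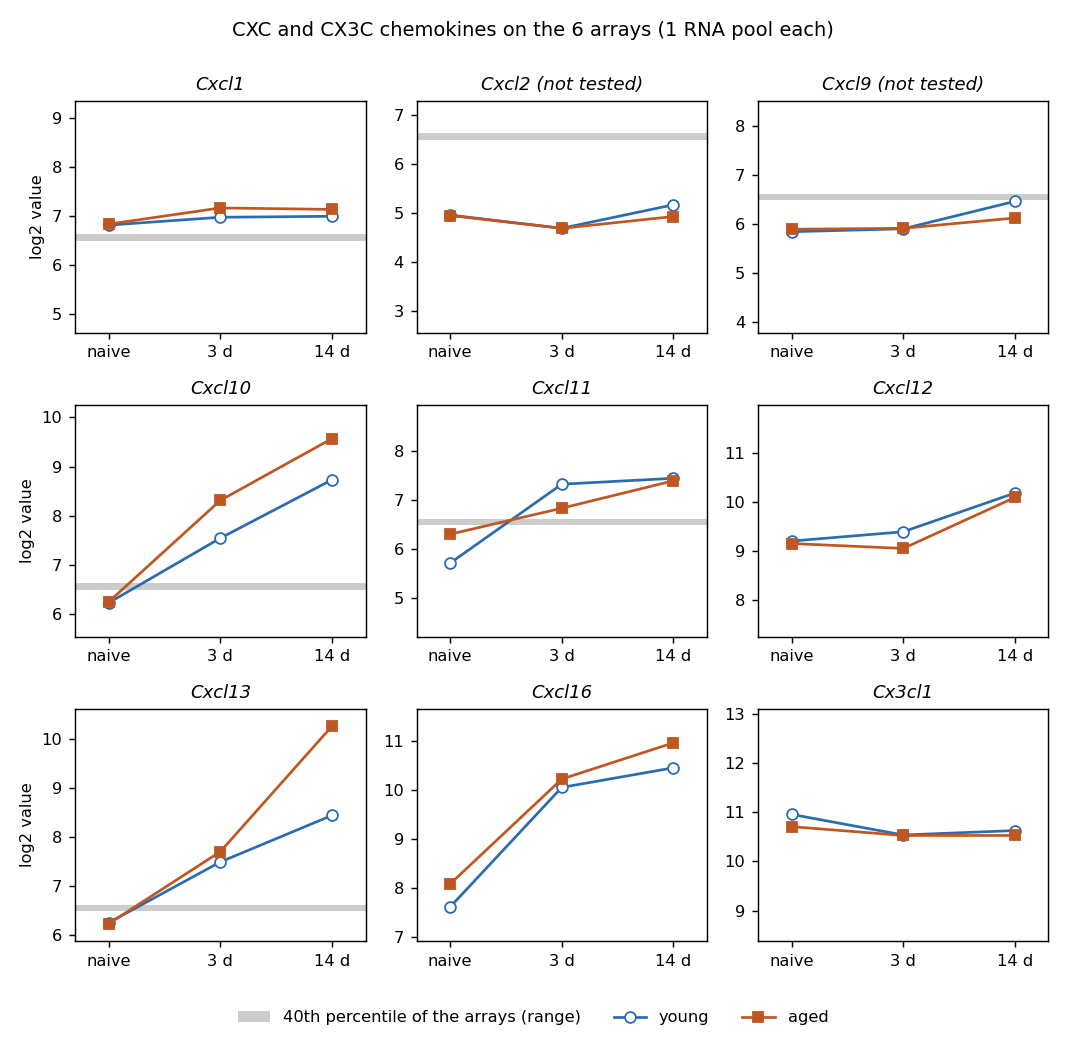
Log2 value (vertical axis, with the same span in each panel) of the 9 chemokine genes on naive, 3 d and 14 d arrays, with open circles for young and filled squares for aged rats, 1 RNA pool per point. The grey band is the range of the 40th percentile of the 6 arrays: Cxcl10, Cxcl11 and Cxcl13 start below it and end above it, while Cxcl2 and Cxcl9 stay below it throughout.

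The neutrophil attractants Cxcl1 and Cxcl2 passed no test. Cxcl1 was at 6.81 and 6.83 on the young and aged naive arrays, 6.97 and 7.16 at 3 d, and 6.99 and 7.13 at 14 d. All 4 stroke arrays were thus above both naive arrays, by small amounts. The change was 0.24 ± 0.12 at 3 d (limma's adjusted p = 0.186) and 0.23 ± 0.12 at 14 d (adjusted p = 0.197), with 95% intervals from -0.04 to 0.52 and from -0.05 to 0.51. Intervals here are those of single genes, not adjusted for the number tested. Cxcl2 was at 4.95 and 4.94 on the naive arrays, 4.68 and 4.68 at 3 d, and 5.16 and 4.92 at 14 d, all below the lower quartile of the arrays (5.57 to 5.75). In the unfiltered fit its change was -0.27 ± 0.14 at 3 d (limma's adjusted p = 0.231) and 0.10 ± 0.14 at 14 d (adjusted p = 0.714). The receptor Cxcr2 lay between 4.75 and 5.06 on the 6 arrays and Cxcr1 between 6.11 and 6.49, both below the 40th percentile throughout. Neither Cxcr1 nor Cxcr2 was called without the filter.

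Neutrophil markers gave a divided picture beside these genes. S100a8, S100a9, Mpo, Camp, Ngp and Cxcr2, 6 of the 9 markers, stayed below the 40th percentile on all arrays. In the unfiltered fit 2 of the 9 rose at each time, where 9.97% of all genes rose at 3 d and 9.4% at 14 d. The median change of the 9 markers was 0.02 at 3 d and -0.03 at 14 d. Mmp8, a collagenase of neutrophil granules, rose by 2.53 ± 0.36 at 3 d (limma's adjusted p = 0.00285) and by 2.52 ± 0.36 at 14 d, and Csf3r, the receptor of granulocyte colony-stimulating factor, by 2.03 ± 0.21 and 1.96 ± 0.21. Mmp8 reached the 40th percentile on stroke arrays only, so its changes start from values below that level. The mean level of the 9 markers was 5.55 and 5.57 on the naive arrays, 5.98 to 6.02 at 3 d and 5.91 to 5.94 at 14 d. In whole tissue, fewer cells of a type and less RNA per cell cannot be told apart.

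The interferon-inducible ligands Cxcl10 and Cxcl11 rose at both times, whereas Cxcl9 did not pass. Cxcl10 was at 6.22 and 6.24 on the young and aged naive arrays, 7.54 and 8.31 at 3 d, and 8.73 and 9.57 at 14 d. The naive arrays were nearly equal, both 14 d arrays were above both 3 d arrays, and at each time the aged array was the higher. The rise was 1.70 ± 0.20 at 3 d, a 3.24-fold change (limma's adjusted p = 0.00125). At 14 d it was 2.92 ± 0.20, a 7.58-fold change (adjusted p = 0.000138). Cxcl10 was higher at 14 d than at 3 d by 1.23 ± 0.20 (adjusted p = 0.0208). That call was lost in a model without age (adjusted p = 0.127), while the rises over naive passed in all 13 alternatives. Folds assume that the deposited values are logarithms to base 2.

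Cxcl11 was at 5.72 and 6.31 on the young and aged naive arrays, 7.33 and 6.84 at 3 d, and 7.45 and 7.40 at 14 d. All stroke arrays were above both naive arrays, but the ages moved unequally: young rats gained 1.61 by 3 d and aged rats 0.54. The fitted rise was 1.07 ± 0.23 at 3 d (limma's adjusted p = 0.0146) and 1.41 ± 0.23 at 14 d (adjusted p = 0.00476). The call at 3 d ended without the young naive array, where the change was 0.65 with adjusted p = 0.107, and without the young 3 d array, at 0.69 and adjusted p = 0.0832. The call at 14 d held in all 12 alternatives in which the gene was tested. From 3 d to 14 d the difference was 0.33 ± 0.23 (adjusted p = 0.684; interval -0.20 to 0.86).

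Cxcl9 was at 5.85 and 5.90 on the young and aged naive arrays, 5.91 and 5.92 at 3 d, and 6.47 and 6.13 at 14 d. Both 14 d arrays were above the other 4, yet still under the 40th percentile of their array. Without the filter its change was 0.04 ± 0.15 at 3 d (limma's adjusted p = 0.892) and 0.42 ± 0.15 at 14 d (adjusted p = 0.0932). The shared receptor Cxcr3 lay between 6.53 and 6.86 with overlapping groups, and changed by -0.15 ± 0.15 at 3 d and -0.06 ± 0.15 at 14 d (limma's adjusted p = 0.485 and 0.814).

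Among the interferon pathway genes listed with these ligands, 8 of 14 rose at 3 d (9.97% of all genes rose) and 8 of 14 at 14 d (9.4% of all genes), and 0 fell. The largest rises at 3 d were those of Irf8, a transcription factor of myeloid cells (2.11 ± 0.17), Socs3, an inhibitor of cytokine signalling (1.49 ± 0.14), and Ifngr1, a chain of the interferon-gamma receptor (1.47 ± 0.15). At 14 d they were those of Irf8 (2.57 ± 0.17), Irf7, an amplifier of type I interferon (2.50 ± 0.12), and Irf9, the DNA-binding part of the ISGF3 complex (1.95 ± 0.15). The interferon genes Ifng (5.47 to 5.72) and Ifnb1 (5.26 to 5.64) stayed below the 40th percentile on all 6 arrays. Of 6 NK cell markers, Ncr1, Klrk1 and Klrd1 stayed below that level. Without the filter 0 of the 6 rose at 3 d and 1 at 14 d, the receptor gene Klrk1 (1.10 ± 0.29, limma's adjusted p = 0.0364). Their mean level was 5.87 to 5.91 on naive arrays, 5.75 to 5.82 at 3 d, and 6.06 (young) and 6.43 (aged) at 14 d. T cell markers moved in part: Cd3d, Cd3e, Cd3g, Cd247 and Cd2 stayed below the 40th percentile, and in the unfiltered fit 3 of the 10 rose at 3 d and 2 at 14 d. At 3 d these were Cd8a (1.42 ± 0.35), Cd8b (1.33 ± 0.37) and Cd4 (0.79 ± 0.14), and at 14 d Cd4 (2.11 ± 0.14) and Cd8b (1.74 ± 0.37). Cd8a and Cd8b reached the 40th percentile on stroke arrays only. In rats Cd4 is also carried by macrophages and microglia. The part of these cells in the chemokine values was not tested.

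Cxcl12 rose late. It was at 9.21 and 9.16 on the young and aged naive arrays, 9.40 and 9.06 at 3 d, and 10.19 and 10.10 at 14 d. The 3 d arrays lay on either side of the naive arrays, and both 14 d arrays stood above all 4 others. The change was 0.04 ± 0.13 at 3 d (limma's adjusted p = 0.839; interval -0.26 to 0.34) and 0.95 ± 0.13 at 14 d, a 1.94-fold rise (adjusted p = 0.00216). It was higher at 14 d than at 3 d by 0.91 ± 0.13 (adjusted p = 0.00966). This last call ended without the aged 3 d array (0.78, adjusted p = 0.0695).

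Of the receptors of Cxcl12, Cxcr4 was called at 3 d and at 14 d with the filter, and Ackr3 at neither time. Cxcr4 was at 7.18 and 7.10 on the naive arrays, 7.92 and 7.64 at 3 d, and 7.71 and 7.43 at 14 d, with all stroke arrays above both naive arrays and the young array the higher at each time. It rose by 0.64 ± 0.12 at 3 d (limma's adjusted p = 0.00979) and by 0.43 ± 0.12 at 14 d (adjusted p = 0.0392; 0.061 in the fit without a filter). Ackr3 lay between 8.52 and 9.03 with overlapping groups and was not called (0.17 ± 0.16 at 3 d and 0.11 ± 0.16 at 14 d). Markers of meninges and fibroblasts and of choroid plexus were also higher at 14 d than at 3 d. Of the meningeal and fibroblast markers 7 of 8 rose in that comparison (0.835% of all genes rose), among them Igf2 (2.83 ± 0.14), Slc22a6 (1.62 ± 0.14) and Slc6a13 (1.42 ± 0.21). Their mean level was 7.68 to 7.82 on naive arrays, 8.41 to 8.73 at 3 d and 9.93 to 10.10 at 14 d. Of the choroid plexus markers 4 of 5 rose from 3 d to 14 d, among them Kcnj13 (1.42 ± 0.16), Clic6 (1.26 ± 0.24) and Ttr (1.17 ± 0.13). All 5 had fallen at 3 d against naive (4.28% of all genes fell), with a median of -1.07, and 0 were called at 14 d against naive. Their mean level was 8.97 to 9.24 on naive arrays, 7.85 to 8.24 at 3 d and 9.14 to 9.26 at 14 d. Of the 6 endothelial markers 0 were called from 3 d to 14 d. Whether meninges or choroid plexus in the samples contributed to the Cxcl12 values was not tested.

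Cxcl13 had the widest range of the 9 genes. It was at 6.25 and 6.23 on the young and aged naive arrays, 7.49 and 7.70 at 3 d, and 8.44 and 10.26 at 14 d. The ages were close to each other in naive brain and at 3 d, and at 14 d the aged array was far above the young one. The rise was 3.11 ± 0.38 at 14 d, an 8.64-fold change (limma's adjusted p = 0.00148), and the call held in all 13 alternatives with changes from 2.25 to 3.97. At 3 d it was 1.36 ± 0.38 (adjusted p = 0.0414). The call at 3 d ended in 5 of 13 alternatives: with trended and robust variances (adjusted p = 0.154), with age left out (0.0931), and without the young naive array (1.87, adjusted p = 0.0518), the aged naive array (0.84, adjusted p = 0.357) or the young 3 d array (1.01, adjusted p = 0.141). From 3 d to 14 d the difference of 1.75 ± 0.38 missed the threshold (adjusted p = 0.0618), and it passed without the young 3 d array (2.10), the young 14 d array (2.62) or the aged 14 d array (0.89).

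The receptor Cxcr5 lay between 6.36 and 6.71, close to the 40th percentile, and was not called (-0.16 ± 0.12 at 3 d and 0.10 ± 0.12 at 14 d, limma's adjusted p = 0.37 and 0.59). B cell markers were low and none was called: Ms4a1, Cr2 and Jchain stayed below the 40th percentile on all arrays, and 0 of the 5 found were called in the unfiltered fit. The mean level of the 5 B cell and plasma cell markers found was 5.61 to 5.74 on naive arrays and 5.52 to 5.70 after stroke. Of the lymphotoxin and BAFF genes, which organise B cell areas, Lta, Ltb and Tnfsf11 stayed below the 40th percentile. The other 2 of the 5 found rose at each time, where 9.97% of all genes rose at 3 d and 9.4% at 14 d. Tnfsf13b, the B cell survival factor BAFF, rose by 1.53 ± 0.17 at both times. Ltbr, the lymphotoxin receptor, rose by 0.82 ± 0.13 and 0.88 ± 0.13. Tnfsf13b reached the 40th percentile on stroke arrays only.

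The transmembrane ligands went separate ways. Cxcl16 was at 7.61 and 8.08 on the young and aged naive arrays, 10.05 and 10.22 at 3 d, and 10.45 and 10.96 at 14 d. All 4 stroke arrays were far above both naive arrays, both 14 d arrays were above both 3 d arrays, and the aged array was the higher in each pair. The rise was 2.29 ± 0.13 at 3 d, a 4.89-fold change (limma's adjusted p = 8.72e-05), and 2.86 ± 0.13 at 14 d, a 7.29-fold change (adjusted p = 6.86e-05), and both calls held in all 13 alternatives. The further difference of 0.58 ± 0.13 from 3 d to 14 d missed the threshold (adjusted p = 0.0792). It passed with quantile normalization (0.62, adjusted p = 0.0396), with trended and robust variances (adjusted p = 0.00911) and without the young 14 d array (0.67, adjusted p = 0.0371). The receptor Cxcr6 stayed between 5.97 and 6.17, below the 40th percentile on every array.

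Cx3cl1 was at 10.96 and 10.71 on the young and aged naive arrays, 10.54 and 10.53 at 3 d, and 10.63 and 10.53 at 14 d. All 4 stroke arrays were below both naive arrays. The change was -0.30 ± 0.12 at 3 d (limma's adjusted p = 0.123; interval -0.59 to -0.01) and -0.26 ± 0.12 at 14 d (adjusted p = 0.173; interval -0.55 to 0.03), so neither passed. At 3 d it was called with trended and robust variances (adjusted p = 0.0366). Neuron markers moved the same way: 3 of 11 fell at 3 d (4.28% of all genes fell) and 6 of 11 at 14 d (6.63% of all genes), or 4 (7.87%) and 8 (11.4%) with the filter, with medians of -0.43 and -0.50, and their mean level went from 11.26 to 11.29 on naive arrays to 10.86 at 3 d and 10.61 to 10.72 at 14 d. The part of neurons in the Cx3cl1 values was not tested.

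Its receptor rose. Cx3cr1 was at 10.02 and 10.36 on the young and aged naive arrays, 11.28 and 11.52 at 3 d, and 11.33 and 11.84 at 14 d, with all stroke arrays above both naive arrays and the aged array the higher in each pair. The rise was 1.21 ± 0.13 at 3 d (limma's adjusted p = 0.000704) and 1.39 ± 0.13 at 14 d (adjusted p = 0.000388). Markers of microglia and macrophages also rose against naive: 10 of 11 at 3 d (9.97% of all genes rose) and 11 of 11 at 14 d (9.4% of all genes). Among them Cd68, a lysosomal protein, rose by 3.55 ± 0.25 and 4.14 ± 0.25. The mean level of these markers was 8.04 and 8.43 on the young and aged naive arrays, 10.16 and 10.25 at 3 d, and 10.01 and 10.66 at 14 d. In young rats this mean was lower at 14 d than at 3 d, whereas Cxcl16 and Cx3cr1 were higher. The part of cell number in the chemokine and receptor values was not tested.

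**Figure D2:**
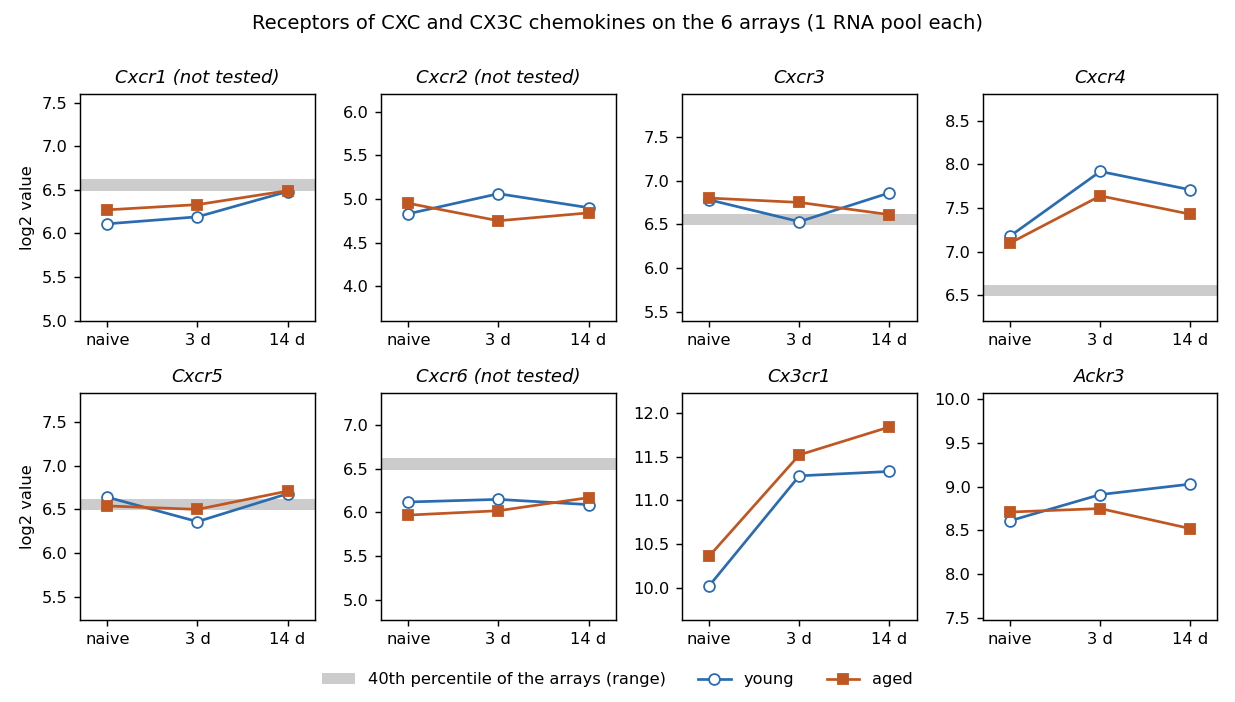
Log2 value (vertical axis, with the same span in each panel) of the 8 receptor genes found, on naive, 3 d and 14 d arrays, with open circles for young and filled squares for aged rats, 1 RNA pool per point. The grey band is the range of the 40th percentile of the arrays and lies outside the span for some genes; Cx3cr1 and Cxcr4 stand higher on all stroke arrays than on naive arrays, and the other 6 receptors were not called.

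Proteases that shed or trim these chemokines were mostly higher among those found. Adam10, also on the list, was not matched to a probe set with 1 symbol. Of 6 found 5 rose at 3 d and 4 at 14 d (9.97% and 9.4% of all genes rose; 14.4% and 13.6% with the filter), and Dpp4, which trims Cxcl10 and Cxcl12, stayed below the 40th percentile. At 3 d Mmp2 rose by 1.12 ± 0.12, Mmp14 by 0.99 ± 0.22 and Adam17, a sheddase of Cx3cl1 and Cxcl16, by 0.96 ± 0.16 (limma's adjusted p = 0.00476). At 14 d Mmp14 rose by 1.51 ± 0.22, Mmp2 by 1.49 ± 0.12 and Ctss, the lysosomal protease cathepsin S, by 1.32 ± 0.13. Mmp9 did not pass at 14 d (-0.38 ± 0.21), and it fell by 1.33 from 3 d to 14 d (adjusted p = 0.0177).

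Genes that carry the signal of chemokine receptors rose in 6 of 12 at 3 d (9.97% of all genes rose) and in 6 of 12 at 14 d (9.4% of all genes). The largest rises at 3 d were those of Rac2, a GTPase of blood cells (2.54 ± 0.30), Dock2, its activator (2.03 ± 0.18), and Rgs1, which limits G protein signalling (1.99 ± 0.30), and at 14 d these were at 2.34, 2.32 and 2.02. Upstream, genes of the TNF, interleukin-1 and Toll-like receptor routes to NF-kB rose in 11 of 15 at 3 d and in 12 of 15 at 14 d, against the same shares of all genes. Rgs1 and Tlr2 reached the 40th percentile on stroke arrays only. Tnfrsf1a rose by 1.93 ± 0.21 and 1.80 ± 0.21, Tnfrsf1b by 1.41 ± 0.20 and 1.70 ± 0.20, and Tlr2 by 1.40 ± 0.20 and 1.56 ± 0.20. The cytokine Il1b was not called (0.28 ± 0.16 and 0.18 ± 0.16), and Tnf and Il6 stayed below the 40th percentile on all 6 arrays.

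Other CXC ligands were for the most part low or level. Cxcl17, a mucosal chemokine, was at 6.89 and 7.02 on the young and aged naive arrays, 7.13 and 7.48 at 3 d, and 7.90 and 8.82 at 14 d. The aged array was the higher in each pair, and both 14 d arrays were above all 4 others. Cxcl17 rose by 1.40 ± 0.19 at 14 d (limma's adjusted p = 0.00216) and by 1.05 ± 0.19 from 3 d to 14 d (adjusted p = 0.0287), while its change of 0.35 ± 0.19 at 3 d did not pass. Cxcl14, a chemokine of resting tissue, changed by -0.15 ± 0.13 at 3 d and -0.30 ± 0.13 at 14 d, and Pf4, a platelet chemokine, by 0.34 ± 0.13 and 0.26 ± 0.13, with adjusted p from 0.103 to 0.426. Cxcl3, Cxcl6 and Ppbp stayed below the 40th percentile on every array.

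**Figure D3:**
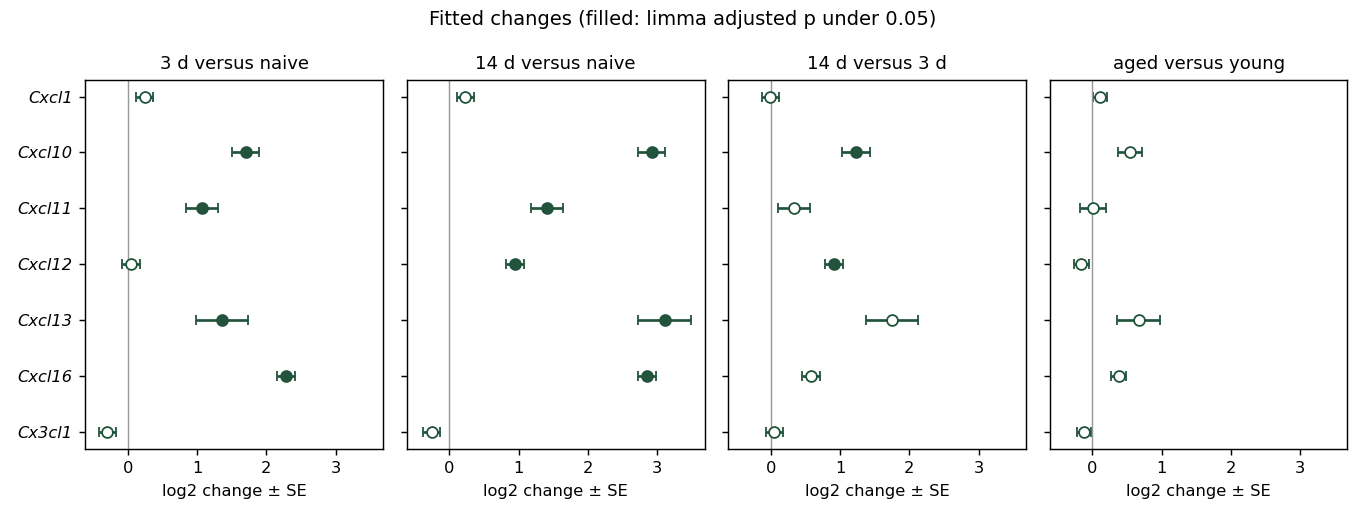
Fitted log2 changes (horizontal axis) of the 7 tested chemokine genes in each comparison, with bars of 1 standard error and filled points for a limma adjusted p under 0.05. Filled points are Cxcl10, Cxcl11, Cxcl13 and Cxcl16 at 3 d, the same genes and Cxcl12 at 14 d, and Cxcl10 and Cxcl12 for 14 d against 3 d.

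The direct comparison of 14 d with 3 d asked whether the chemokines rose further or fell back, and it uses no naive level. In the fit without a filter 2 of the 9 rose, Cxcl10 and Cxcl12 (0.835% of all genes rose), and 0 fell (1.23% of all genes). All 9 chemokines but Cxcl1 (-0.01 ± 0.12) had fitted differences above 0, though only Cxcl10 and Cxcl12 were called. Cx3cl1, for example, was at 0.05 (limma's adjusted p = 0.951). Of all genes tested, 35.9% were higher at 14 d than at 3 d in the young pair of arrays and 49.4% in the aged pair. For CC chemokines, the other large family, 18 genes were found. In the unfiltered fit 1 of them rose from 3 d to 14 d, Ccl19, a ligand of Ccr7 (0.72 ± 0.12), and 2 fell, the monocyte attractants Ccl2 (by 1.66) and Ccl7 (by 1.12), where 0.835% of all genes rose and 1.23% fell (1.34% and 1.82% with the filter). Ccl2 had changed by 4.52 ± 0.19 at 3 d and 2.86 ± 0.19 at 14 d, and Ccl7 by 1.40 ± 0.15 and 0.28 ± 0.15. Ccl7 reached the 40th percentile on the 3 d arrays only. From 3 d to 14 d the median unfiltered change of the 18 CC chemokines was 0.23. It was 0.38 for the 9 CXC and CX3C chemokines and -0.003 over all genes. The difference between the families was not tested.

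**Figure D4:**
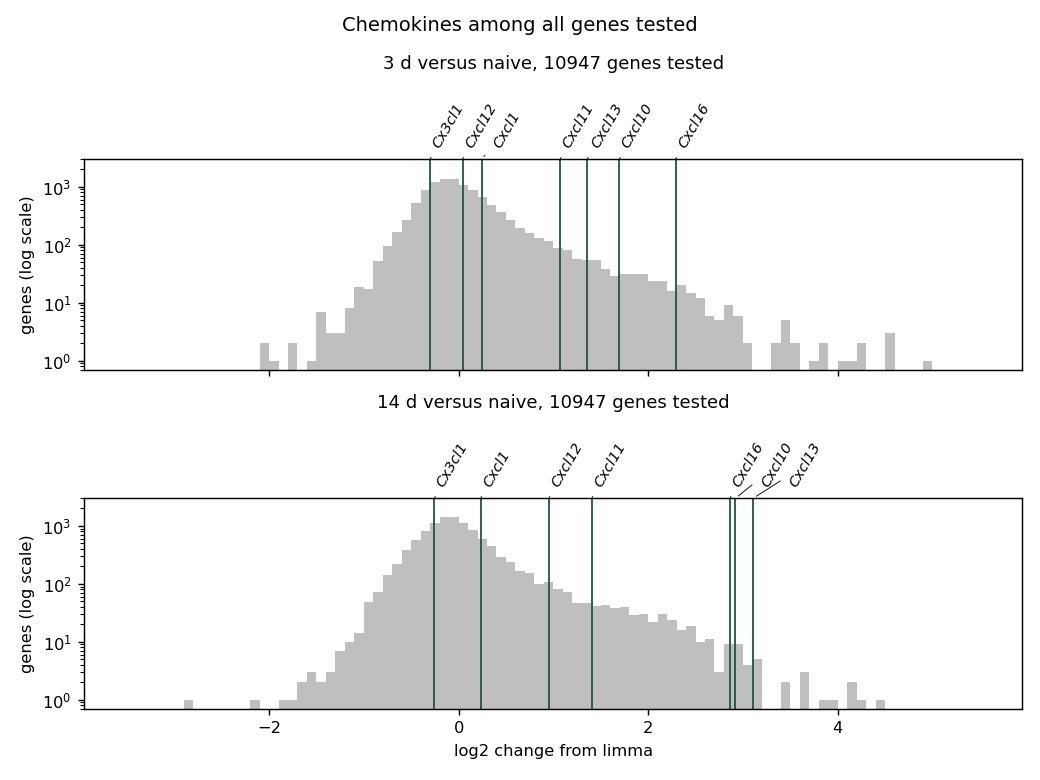
Number of genes (vertical axis, log scale) by log2 change at 3 d and at 14 d against naive, over the 10947 genes tested, with green lines at the 7 tested chemokines. Cxcl16 is the highest of them at 3 d with 2.29, and at 14 d Cxcl13 (3.11), Cxcl10 (2.92) and Cxcl16 (2.86) lie in the upper tail. Cxcl10, Cxcl11 and Cxcl13 were tested because they passed the filter on stroke arrays only.

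The effect of age over all 3 time points was not called for any chemokine. Limma called 0 genes of 10947 (0% higher and 0% lower), with 852 genes at an unadjusted p under 0.05, 3.71% of all genes higher and 4.07% lower in aged rats, among them Cxcl10 (0.54 ± 0.17 aged minus young, unadjusted p = 0.0123) and Cxcl16 (0.38 ± 0.11, unadjusted p = 0.00896). Both had an adjusted p = 0.631. Both were higher in the aged array in 3 of 3 pairs, but the naive pair of Cxcl10 differed by only 0.01. How many of all genes kept 1 direction in all 3 pairs was not counted. Cxcl13 was at 0.67 ± 0.31 (adjusted p = 0.638; interval -0.06 to 1.40), and its pairs differed by -0.02 in naive brain, 0.21 at 3 d and 1.82 at 14 d.

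Age differences at single times rest on 1 array against 1 and have no test. At 14 d the aged array exceeded the young one by 1.82 for Cxcl13, a 3.53-fold difference. Of the 10947 genes tested, 1.04% were higher by at least 1 in that pair. Cxcl10, Cxcl11 and Cxcl13 entered these genes through stroke arrays only, so they are given no rank. At 14 d Cxcl10 was higher by 0.84 and Cxcl16 by 0.51 (rank 860) in aged rats, while Cxcl11 (-0.05), Cxcl12 (-0.09) and Cx3cl1 (-0.10) differed little. At 3 d Cxcl10 was higher in aged rats by 0.77. At that time 0.0274% of genes were higher by at least 1, a size that Cxcl10 did not reach. Cxcl11 was lower in aged rats at 3 d by 0.49 (-0.49) and Cxcl12 by 0.33 (-0.33). In naive brain Cxcl11 was higher in aged rats by 0.58, but both values, 5.72 and 6.31, lay below the 40th percentile. There Cxcl16 was higher in aged rats by 0.47 (rank 127). Cx3cl1 differed by -0.25 there, and Cxcl10 and Cxcl13 by 0.01 and -0.02. In that pair 0.164% of genes were higher by at least 1, a size that no tested chemokine reached. At 14 d the microglia and macrophage markers also stood higher on the aged array, with a mean level of 10.66 against 10.01, and their part in the difference was not tested. B cell and plasma cell markers did not stand higher there, at 5.53 in aged against 5.70 in young rats.

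**Figure D5:**
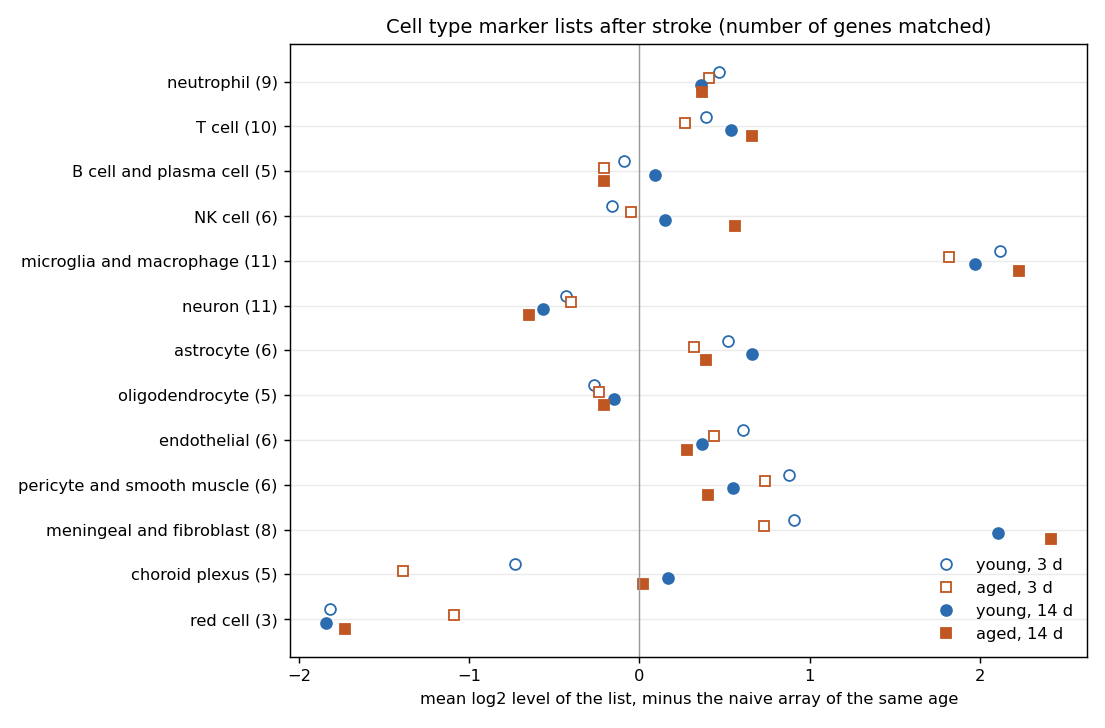
Mean log2 level of each cell type marker list on the stroke arrays minus the naive array of the same age (horizontal axis), with circles for young and squares for aged rats, open at 3 d and filled at 14 d, 1 array per point. Microglia and macrophage markers lie near 2 at both times, meningeal and fibroblast markers are further to the right at 14 d than at 3 d, and B cell markers stay near 0.

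The genes whose values over the 6 arrays ran closest to each chemokine were sought among 1520 tested genes with a range of at least 1. These correlations describe 6 arrays of 3 conditions, which share their conditions and normalization, and many genes reach high values: 24.7% of the 1520 had r of at least 0.95 with Cxcl16, 10.9% with Cxcl10, 7.5% with Cxcl13, 3.22% with Cxcl11 and 2.17% with Cxcl12. Cxcl16 was closest to Csf1r, Laptm5 and Itgb2 (r from 0.9985 to 0.9991). Cxcl13 was closest to Slfn4, Kcnj5 and Slc22a18 (0.9974 to 0.9992). Cxcl10 was closest to Slamf8, Slco2b1 and Uba7 (0.9917 to 0.9949). Cxcl12 was closest to Vtn, Gjb2 and Cpxm1 (0.9863 to 0.9918), and Cxcl11 to Il13ra1, Mthfs and Magt1 (0.9717 to 0.9916). No gene was among the 3 closest of more than 1 chemokine.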

How the data were processed

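Values deposited by the authors, 1 for each probe set on each array, were used as log2 values; base 2 was inferred from their span. Per the labels' protocols, RNA was extracted with TRIzol, and 200 ng was amplified and labelled with biotin; R 2.14.0 and affy were used, per the submitters' processing notes. How background was corrected and probe sets were summarised is not given in the sources used here, nor is a build. Of 28826 probe sets, 15209 had 1 symbol in the platform annotation, 306 several and 13311 none; where a gene had several, the one with the highest mean was used. Genes were kept if any array had them at or above its own 40th percentile (10947 genes from 11513 probe sets). Limma 3.58.1 (R 4.3.3) fitted age and time as additive terms with empirical Bayes variances (2 residual and 5.56 prior degrees of freedom) and two-sided tests. Scan dates are not given in the labels, and with 1 array in each group any batch cannot be told apart from the groups.

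The members and lists were chosen with earlier results of these data known. All 9 members and all listed CXC ligands and receptors were named; other lists gave up to 3 genes with the largest called change per comparison, and patterns the 3 highest correlations. Il1b, Klrk1, Mmp9 at 14 d, and markers below the filter were named outside this rule, after their values were seen. Of the listed symbols 184 were matched and 20 were not. The fit was tested on 20 simulated sets of arrays, each of 10947 genes with 200 altered. In the comparison of 3 d with naive, 0.9% of changes of 0.5, 46.8% of changes of 1 and 85.7% of changes of 2 were called. There 1.92% of calls were false. The simulated noise was independent between genes and arrays, and fewer genes were altered than the 2432 called at 3 d. The false share therefore does not cover errors shared by the genes of a pool or array. Alternatives were normalization, filter, variance model, probe set rule, the other model term left out, and each array left out.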

Additional observations from a re-analysis of the deposited data

Results flagged for a closer look

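For 3 results the young and the aged pair of arrays moved in opposite directions; each rests on 1 array per group, and the difference was not tested. From naive to 3 d the young pair differed by 0.18 and the aged pair by -0.10 for Cxcl12, a difference of -0.28. Cxcl2, below the 40th percentile on all arrays, changed by 0.22 and -0.02 from naive to 14 d, a difference of -0.24. Cxcl1 changed by 0.01 and -0.03 from 3 d to 14 d, a difference of -0.04.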

How the results depend on the processing

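Of 356 member values under up to 13 alternatives, 340 kept their side of the threshold, 9 lost a call, 7 gained one and 0 called values changed sign; those lost or gained are given with their genes. With each array left out in turn, the count of all genes called ranged from 748 to 3733 at 3 d (2432 with all arrays), from 765 to 3471 at 14 d (2734), from 221 to 576 for 14 d against 3 d (346) and from 0 to 2 for age (0). The chemokines called ranged from 2 to 4 at 3 d, were 5 throughout at 14 d, ranged from 1 to 4 for 14 d against 3 d and were 0 throughout for age. With age left out of the model 1 chemokine was called for 14 d against 3 d, and with trended and robust variances 1 gene was called for age. With array medians centred, the higher share of calls at 14 d moved from 54.5% to 44.2%, and the median change over all genes from -0.055 to -0.111; the same number of chemokines, 5, was called. The 60th percentile filter left Cxcl1 and Cxcl11 out. A left-out array leaves a group with none, so its partner is assumed to vary like the other arrays. Time differences were fitted within age, so the model without age is the unpaired form; the labels give no replicate numbers for any other pairing. Without the filter, calls of listed genes that ended were Arrb2, Il1a, Tmem119 and Gad1 at 3 d, Cxcr4, Cd6, Snap25, Stmn2 and Tek at 14 d and Folr1 for 14 d against 3 d, besides glial markers not described. Values below the 40th percentile limit what can be said of Cxcl2 and Cxcl9.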
